A study of Rattus norvegicus with 12 samples.

Results

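Agps encodes alkylglycerone phosphate synthase, the peroxisomal enzyme that forms the ether bond of ether lipids, and it was examined here with 8 further genes of ether lipid synthesis and of the peroxisome: Gnpat, Far1, Pex2, Pex5, Pex7, Pex14, Pex19 and Cat. The set was built around Agps, which was picked on its measured FPKM values as one of the largest falls after Rest knockdown in TAP conditions, and its partners were taken for their function with the results of these data known. All 9 genes were found by symbol among the 16468 genes of each deposited table. Their values after knockdown are therefore given as a description.

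The data are RNA-seq of HCN cells, a neural stem cell line that was isolated and cloned from the hippocampus of adult Fisher 344 rats, so that every library comes from 1 clonal line. Cells were kept quiescent with FGF2 and BMP4 (iQNP, induced quiescent neural progenitors) or proliferating with FGF2 alone (TAP, transit-amplifying progenitor conditions). All groups were electroporated, the control groups with an empty vector and the knockdown groups with a short hairpin RNA vector against Rest, the repressor that binds RE1 sites. Total RNA cleared of ribosomal RNA gave 12 libraries, with 2 control and 4 knockdown libraries in each condition.

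Each group has a single FPKM per gene (fragments scaled by transcript length and by the number of mapped fragments), made by the authors' Cuffdiff run from all libraries of the group. With these pooled values neither an SD nor an interval nor a test across libraries is given. The authors' own test statistics and p and q values stand in the same tables and were left out by choice, so the differences below are not set against the replicate error. In this bulk RNA, fewer cells of a type and less RNA per cell cannot be told apart. The log2 ratio used throughout is log2 of (knockdown FPKM + 1) over (control FPKM + 1), which understates the difference of low genes, and a gene is called higher or lower where it is at least 2-fold apart on that scale. A gene passed where the Cuffdiff status was OK and the mean of the 2 groups was at least 1 FPKM.

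Rest itself had 48.7 FPKM in control and 13.9 in knockdown iQNP (log2 ratio -1.74), and 27.8 and 9.002 in TAP (log2 ratio -1.53). Of the neural stem and progenitor markers, 8 of 9 were in the tables and all 8 passed in both conditions, with a summed level of 2632 to 4194 FPKM over the 4 groups. Of 6 oligodendrocyte markers 5 passed, and the list summed to 702 to 1093 FPKM. The microglia and leukocyte list (0 of 5 passed, summed level 0.0953 to 0.590 FPKM) and the endothelial and fibroblast list (0 of 6 passed, summed level 0.372 to 2.44 FPKM) were near 0. The neuron list summed to 115 to 182 FPKM, and the part of any of these cell types in the results was not tested.

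Ether lipids carry a fatty alcohol in place of a fatty acid at the first carbon of glycerol, and plasmalogens, their vinyl ether form, are abundant in brain and myelin. Synthesis starts inside the peroxisome, where Gnpat acylates dihydroxyacetone phosphate and Agps exchanges the acyl chain for a fatty alcohol that Far1 supplies, and it is finished in the endoplasmic reticulum. Peroxisomal enzymes are made in the cytosol and imported by peroxins: Pex5 carries proteins with the common carboxy-terminal signal, among them catalase by a variant of it, and Pex7 carries the few with an amino-terminal signal, Agps among them.

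The stretch before the start site is shown for the 4 members on which the account turns, Agps and Cat, which were lower after knockdown, and Pex14 and Pex19, which were higher. The RefSeq table of build GRCr8 held a window for 8 of the 9 members (Pex2 had none), and the 250 bases before the start are printed, read along the gene's strand. Capitals mark matches on either strand to the CCAAT box (CCAAT), the GC box (GGGCGG), the TATA box (TATAAA) or the nuclear receptor half-site (AGGTCA), none of which overlap each other here.
Agps, chr3:81154349-81154598, plus strand: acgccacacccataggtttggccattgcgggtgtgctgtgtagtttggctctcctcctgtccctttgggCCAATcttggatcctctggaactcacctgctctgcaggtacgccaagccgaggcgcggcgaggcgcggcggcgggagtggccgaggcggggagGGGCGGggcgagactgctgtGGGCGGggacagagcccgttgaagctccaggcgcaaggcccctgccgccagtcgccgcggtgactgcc
Cat, chr3:110329527-110329776, minus strand: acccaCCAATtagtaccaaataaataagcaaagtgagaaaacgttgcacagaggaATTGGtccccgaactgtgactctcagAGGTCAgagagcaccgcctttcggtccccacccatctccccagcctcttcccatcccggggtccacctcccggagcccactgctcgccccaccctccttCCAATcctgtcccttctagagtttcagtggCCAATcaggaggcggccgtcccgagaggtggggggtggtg
Pex14, chr5:164819353-164819602, minus strand: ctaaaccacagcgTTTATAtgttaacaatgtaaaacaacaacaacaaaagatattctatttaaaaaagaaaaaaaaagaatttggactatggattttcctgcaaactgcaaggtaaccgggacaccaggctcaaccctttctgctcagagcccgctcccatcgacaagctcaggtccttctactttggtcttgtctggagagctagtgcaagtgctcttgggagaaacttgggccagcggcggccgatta
Pex19, chr13:87124448-87124697, plus strand: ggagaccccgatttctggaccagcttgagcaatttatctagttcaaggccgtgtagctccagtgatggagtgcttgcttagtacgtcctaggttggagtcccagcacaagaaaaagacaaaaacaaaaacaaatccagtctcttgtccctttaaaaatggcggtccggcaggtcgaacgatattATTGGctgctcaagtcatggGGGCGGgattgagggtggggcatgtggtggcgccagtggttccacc

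The Agps window held a CCAAT beginning 181 bases and a GGGCGG beginning 88 and 68 bases before the start. Its GC content was 68.8% against a median of 51.2% over all 33469 windows, and it held 22 CpG against a median of 5. This was not particular to Agps, since Far1 had 70% with 34 CpG and Gnpat 64.4% with 22 CpG. The other members with a window ran from 44% (Pex14, 7 CpG) to 58.8% (Cat, 10 CpG). Cat held 4 CCAAT matches and an AGGTCA 169 bases before the start, Pex19 a CCAAT and a GGGCGG, and Pex14 a TATAAA at 237 bases. CCAAT stood in 6 of the 8 windows and in 34.0% of all windows. GGGCGG stood in 5 of the 8 and in 30.5% of all. The shares over all windows were not limited to genes detected in these cells, so they are no matched background for the 8. TATAAA was found in Pex14 alone and in 12.9% of all windows, AGGTCA in Cat alone and in 14.1%. The pieces of the RE1 element searched, CAGCACC and GGACAGC, were in 5.43% and 5.3% of all windows and in 0 of the 8, which says only that these letters are not in these windows.

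Agps (chromosome 3, 58528573 to 58547728 in rn4) was the most abundant of the 9 genes in all 4 groups. In TAP it had 538.5 FPKM in control and 57.98 in knockdown, a log2 ratio of -3.19, or 9.29-fold lower as a plain ratio of FPKM. In iQNP it had 419.8 FPKM in control and 212.5 in knockdown, a log2 ratio of -0.98 and 1.98-fold lower as a plain ratio, just short of the 2-fold limit. The lower level in knockdown was thus seen in both conditions, and it was the TAP knockdown group that stood apart from the other 3. No other gene of the tables overlapped the Agps locus, and RefSeq names no Agps pseudogene.

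**Figure D1:**
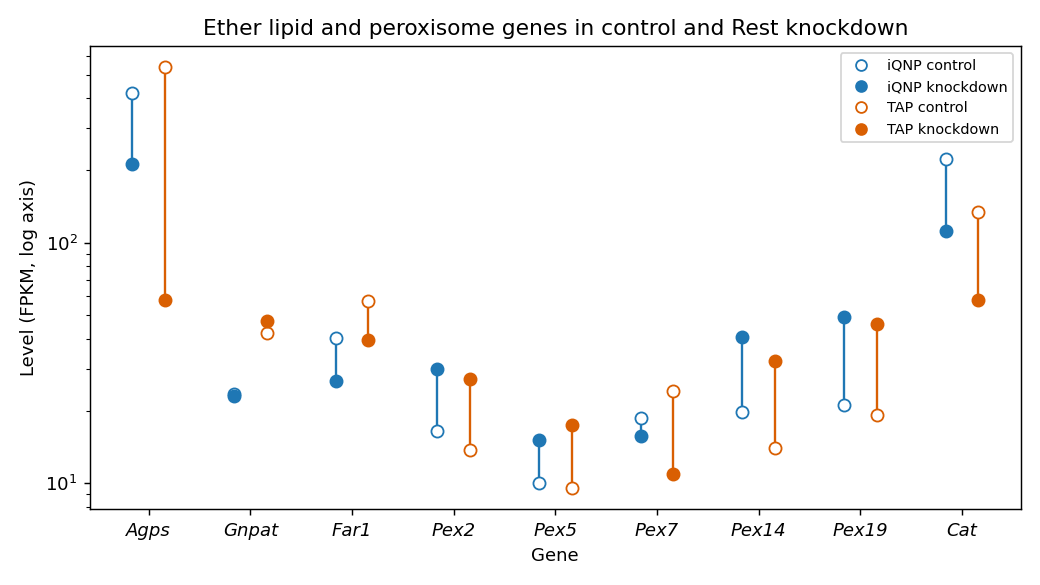
FPKM on a log axis of the 9 genes in the 4 groups, each point the authors' single pooled value of a group, so that no error bar can be drawn. Agps lies at 212.5 FPKM or above in 3 groups and at 57.98 in TAP knockdown, while Cat is lower and Pex14 and Pex19 are higher in knockdown than in control in both conditions.

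Ranked by log2 ratio, Agps was the sixth lowest of the 9284 genes that passed in TAP, and the second lowest of the 8951 with at least 1 FPKM in both groups. In iQNP it ranked 331 of 9542. By level it went from rank 151 of the 16468 genes in control TAP to rank 2228 in knockdown TAP, and from 197 to 700 in iQNP. The TAP ranks repeat the choice of the gene. The log2 ratio in TAP minus that in iQNP was -2.21 for Agps, the eighth lowest of the 9154 genes that passed in both tables, whose central 95% ran from -0.88 to 0.80 with a median of -0.00. This difference was not tested, since each table gives only pooled values.

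**Figure D2:**
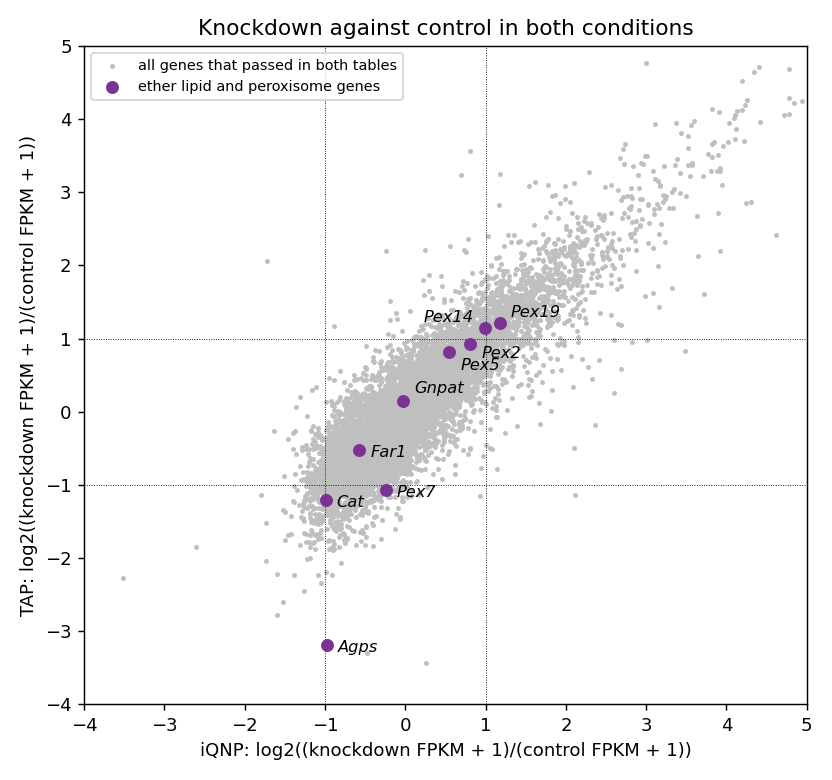
Log2 ratio of knockdown over control in TAP against that in iQNP for the 9154 genes that passed in both tables (grey), with the 9 genes named, and with 71 genes beyond the axes, which run from -4 to 5. Agps lies far below the diagonal at -0.98 and -3.19, and Pex7 is the next farthest below it among the 9 at -0.24 and -1.07.

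The partner enzymes of Agps did not show its pattern. Gnpat (chromosome 19, 55033776 to 55059491), the acyltransferase of the first step, had 23.5 FPKM in control and 23.1 in knockdown iQNP, and 42.4 and 47.1 in TAP. Its log2 ratios of -0.02 and 0.15 lay near the all-gene medians of 0.00 and 0.01. Far1 (chromosome 1, 171392302 to 171437818), the reductase that makes the fatty alcohol, had 40.3 and 26.8 FPKM in iQNP and 57.2 and 39.5 in TAP. Its log2 ratios, -0.57 and -0.52, were below 0 in both conditions and short of 2-fold. RefSeq names 1 Far1 pseudogene in the rat, so reads may be shared with it.

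Since the tables were normalised separately, ratios of genes within a group are safer to set side by side than levels across conditions. Agps stood 17.9 times above Gnpat in FPKM in control iQNP and 9.21 times in knockdown iQNP. In TAP the same ratio was 12.7 in control and 1.23 in knockdown. Against Far1, Agps was 10.4 and 7.94 times higher in iQNP, and 9.41 and 1.47 times higher in TAP. The enzymes that stood about an order of magnitude apart in control TAP were therefore at nearly the same level in knockdown TAP, which again rests on the Agps values that chose the gene.

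Pex7 (chromosome 1, 15099264 to 15163734), the receptor that carries Agps into the peroxisome, was also lower in TAP knockdown. It had 24.2 FPKM in control and 10.98 in knockdown TAP (log2 ratio -1.07), and 18.7 and 15.7 in iQNP (log2 ratio -0.24). It was called lower in TAP alone, and its difference between conditions of -0.83 lay inside the central 95% of all genes. Pex5 (chromosome 4, 160567257 to 160595985), the receptor of the more common signal, which also takes part in import through Pex7, had 10.06 FPKM in control and 15.2 in knockdown iQNP, and 9.55 and 17.5 in TAP. Its log2 ratios were 0.55 and 0.81, so that the ratio of Pex5 to Pex7 was 0.537 and 0.968 in iQNP, and 0.395 and 1.60 in TAP.

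The peroxins of docking, membrane assembly and receptor recycling stood higher in knockdown in both conditions. Pex14 (chromosome 5, 166038316 to 166174652), the docking protein for cargo receptors, had 19.8 FPKM in control and 40.5 in knockdown iQNP, and 14.1 and 32.4 in TAP, with log2 ratios of 0.99 and 1.15. Pex19 (chromosome 13, 88029290 to 88186506), the chaperone of peroxisomal membrane proteins, had 21.1 and 49.2 FPKM in iQNP and 19.2 and 45.9 in TAP, with log2 ratios of 1.18 and 1.21. The Pex19 locus in the tables overlaps those of Copa, Dcaf8, Ncstn and Nhlh1, and how reads were divided among them is not given in the sources used here. Pex2 (chromosome 2, 98361890 to 98378715), a ring-finger subunit of the ligase that recycles Pex5, had 16.6 and 29.8 FPKM in iQNP and 13.8 and 27.3 in TAP, with log2 ratios of 0.81 and 0.93 that were short of 2-fold. For these 3 genes the log2 ratios in TAP were 0.03 to 0.15 above those in iQNP.

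Cat (chromosome 3, 88654076 to 88686212) encodes catalase, which breaks down the hydrogen peroxide made by peroxisomal oxidases. It had 223.4 FPKM in control and 111.6 in knockdown iQNP (log2 ratio -0.99), and 134.7 and 57.7 in TAP (log2 ratio -1.21). The 2 most abundant of the 9 genes, Agps and Cat, were thus both lower in knockdown in both conditions, Cat by a like amount in each. In iQNP both lay just short of the 2-fold limit on the log2 scale with the pseudocount, with 302 of the 9542 genes as low as Cat or lower.

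Of the 9 genes, all of which passed in both tables, 1 (Pex19) was called higher and 0 lower in iQNP, where 14.3% of all genes were called higher and 3.09% lower. In TAP 2 (Pex14 and Pex19) were called higher and 3 (Agps, Cat and Pex7) lower, against 15.4% and 6.74% of all genes. The median log2 ratio of the 9 was -0.02 in iQNP and 0.15 in TAP. The highest of the 9 exceeded the lowest 41.7-fold in FPKM in control iQNP and 14.0-fold in knockdown iQNP, and 56.4-fold and 5.28-fold in TAP. Agps was the highest of them in every group, so this range mostly restates the values on which Agps was chosen.

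These calls depend on scaling. When each group's FPKM were set to the same sum, the log2 ratios shifted by -0.53 in iQNP and -0.61 in TAP, and of the 9 genes 0 were higher and 3 lower in iQNP, and 0 higher and 4 lower in TAP. The all-gene shares on that scale were 7.45% higher and 24.2% lower in iQNP and 6.69% and 29.7% in TAP. Leaving 80 ribosomal protein genes out of the sum gave shifts of -0.19 and -0.15, with 11.2% higher and 8.31% lower in iQNP and 12.7% and 10.3% in TAP. Gnpat in TAP changed sign on the first of these scales, whereas Pex14, Pex19, Pex2 and Pex5 stayed above 0 on both. Agps, Cat, Far1 and Pex7 were below 0 before scaling. Since these shifts are all negative, those 4 genes could only go lower.

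The wider pathway was described with 6 lists holding 98 genes, of which 95 were in the tables. In iQNP 80 passed, with 15 higher and 1 lower and a median log2 ratio of 0.15. In TAP 79 passed, with 14 higher and 5 lower and a median of 0.29. The shares higher, 18.8% in iQNP and 17.7% in TAP, stand beside 14.3% and 15.4% of all genes. The shares lower, 1.25% in iQNP and 6.33% in TAP, stand beside 3.09% and 6.74% of all genes. With the same sum of FPKM the counts were 10 higher and 16 lower in iQNP and 6 higher and 16 lower in TAP. On that scale 7.45% of all genes were higher and 24.2% lower in iQNP, and 6.69% and 29.7% in TAP. It lowers every ratio of a condition by the same amount, and the medians of the ether lipid and oxidation lists turned negative in both conditions. Without ribosomal protein genes in the sum those 2 medians turned negative in iQNP. No gene of the lists was past 2-fold in opposite directions in the 2 conditions, and the share of all genes that were was not computed.

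Among 16 ether lipid and plasmalogen genes, 3 were higher and 0 lower in iQNP, and 3 higher and 1 lower in TAP, with medians of 0.17 and 0.23. The share higher was 18.8% in each, beside 14.3% and 15.4% of all genes. The share of all genes called lower was 3.09% in iQNP and 6.74% in TAP. Agps was the gene called lower. Pcyt2, which makes CDP-ethanolamine for the head group, had 23.9 FPKM in control and 81.7 in knockdown iQNP and 18.9 and 62.5 in TAP (log2 ratios 1.73 and 1.67). Fads3, a fatty acid desaturase family member, had 42.5 and 149.1 FPKM in iQNP and 10.8 and 28.8 in TAP (1.79 and 1.33). Gpd1l and Gpd1, which act on glycerol phosphate and dihydroxyacetone phosphate, gave log2 ratios of 0.30 and 1.20, and 1.06 and 0.62. Tmem189, the desaturase that introduces the vinyl ether bond, was abundant at 231.6 and 227.9 FPKM in iQNP and 125.2 and 140.2 in TAP and not past 2-fold, as was Dhrs7b, the reductase after Agps, at log2 ratios of 0.65 and 0.37.

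Among 15 peroxins that passed, of 17 listed, 3 were higher and 0 lower in iQNP and 4 higher and 1 lower in TAP, with medians of 0.59 and 0.73 against all-gene medians of 0.00 and 0.01. The shares higher were 20.0% and 26.7%, beside 14.3% and 15.4% of all genes, and 3.09% and 6.74% of all genes were called lower. With the same sum of FPKM the medians were 0.06 and 0.13, with 2 peroxins higher in iQNP and 1 in TAP, and over all 17 listed the medians were 0.55 and 0.43. Beside Pex14 and Pex19, Pex11g, a membrane peroxin, had 0.486 and 4.17 FPKM in iQNP and 0.210 and 1.90 in TAP, and it passed the filter only through the knockdown level. Pex7 was the peroxin called lower.

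Among 22 genes of peroxisomal fatty acid oxidation that passed, of 26 listed, 3 were higher and 0 lower in each condition, with medians of 0.10 and 0.36. The share higher, 13.6% in each, was near that of all genes (14.3% and 15.4%), of which 3.09% and 6.74% were called lower. The 3 genes called higher were the same in both conditions. Acaa1a, a thiolase of beta-oxidation, had 5.23 and 31.5 FPKM in iQNP and 5.60 and 21.2 in TAP, Acot8, a thioesterase, 5.37 and 22.2 in iQNP and 4.60 and 16.3 in TAP, and Scp2, a thiolase and sterol carrier, 34.5 and 102.1 in iQNP and 27.8 and 85.5 in TAP. The Acaa1a locus overlaps that of the near-identical Acaa1b, Acot8 overlaps Zswim3, and Scp2 has 1 named pseudogene, so these values are less certain. Decr2, a reductase for unsaturated fatty acids, gave log2 ratios of 0.996 and 0.60, and Abcd4 0.98 and 0.90.

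**Figure D3:**
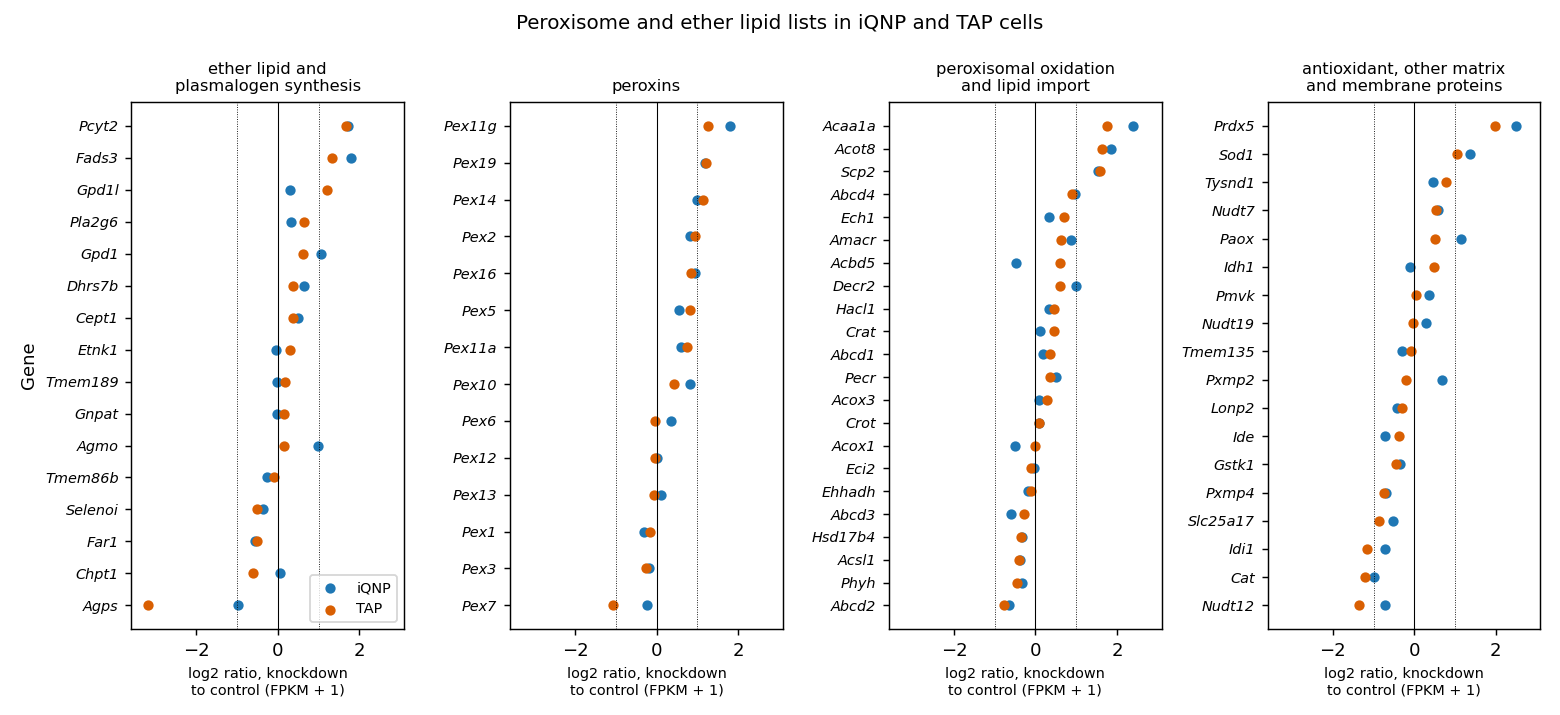
Log2 ratio of knockdown over control in iQNP and in TAP for genes of 4 lists that passed (1 of them not drawn), each point 1 gene from pooled values, with dotted lines at 2-fold. Prdx5 is the farthest to the right of the genes drawn, at 2.49 in iQNP, and Agps is the farthest to the left, at -3.19 in TAP.

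The list of antioxidant and other matrix or membrane proteins had 18 genes that passed, of 27 listed, with 3 higher and 0 lower in iQNP and 2 higher and 3 lower in TAP, and medians of -0.21 and -0.14. The shares higher were 16.7% in iQNP and 11.1% in TAP, beside 14.3% and 15.4% of all genes. Of all genes 3.09% were called lower in iQNP and 6.74% in TAP. Prdx5, a peroxiredoxin that removes peroxides, had 54.6 FPKM in control and 311.9 in knockdown iQNP and 32.3 and 130.9 in TAP (log2 ratios 2.49 and 1.99). Sod1, superoxide dismutase, had 334.3 and 857.8 FPKM in iQNP and 388.7 and 802.3 in TAP (1.36 and 1.04). Thus catalase stood lower in knockdown while Prdx5 and Sod1 stood higher. Those genes are named for the size of their ratios, and the median of the list was below 0 in both conditions. Besides Cat, Idi1, an isomerase of isoprenoid synthesis whose locus overlaps Wdr37, gave log2 ratios of -0.72 and -1.16, and Nudt12, a nudix hydrolase, -0.72 and -1.35.

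The fission genes shared with mitochondria gave 2 higher in iQNP and 1 in TAP among 3 that passed. These shares of 66.7% and 33.3% rest on 3 genes and stand beside 14.3% and 15.4% of all genes. Fis1, a membrane adaptor, had 59.0 and 220.8 FPKM in iQNP and 57.1 and 137.1 in TAP, and Mff, another adaptor, gave log2 ratios of 1.10 and 0.78. Dnm1l, the dynamin-related enzyme they recruit, gave -0.78 and -0.97. Among the peroxisome proliferator receptors and their coactivators, Rxrb, a retinoid X receptor, had 6.41 and 24.7 FPKM in iQNP and 6.43 and 25.4 in TAP. The coactivator Ppargc1a had 9.60 and 2.47 FPKM in iQNP, and in TAP its status did not pass. Medians of the genes that passed were 1.10 and 0.78 for the fission list, and -0.38 and 0.65 for the receptors. For the receptors these cover 6 genes in iQNP and 5 in TAP, so the 2 medians are not of the same genes. Over all listed genes the medians were 0.59 and 0.30 for the 4 fission genes, and -0.22 and 0.21 for the 7 receptors and coactivators.

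The neighbours of Agps within 500 kb in rn4 were described as well. Hnrnpa3, an RNA-binding protein gene, gave log2 ratios of -0.20 and -0.62, and Nfe2l2, a transcription factor of the antioxidant response, 0.07 and 0.03. Ttc30b, which shares its locus with Ttc30a1, had 20.2 and 13.4 FPKM in iQNP and 15.4 and 6.80 in TAP, with ratios of -0.56 and -1.07. It was thus the neighbour called lower in TAP. Ttc30a1, Pde11a and Cyct did not pass.

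Over the 4 group values, the genes with the profile closest to Agps (Euclidean distance of log2(FPKM + 1) after removing each gene's mean, among 9173 genes) were RGD1562890, Mitf, Hist2h4, Bcl2 and Rbm25. RGD1562890, a long non-coding RNA in RefSeq, was the closest at a distance of 0.416, with 55.2 and 39.6 FPKM in iQNP and 101.2 and 9.34 in TAP. Mitf, a transcription factor of the basic helix-loop-helix family, followed at 0.708, with 170.3 and 85.4 FPKM in iQNP and 153.6 and 32.8 in TAP. Hist2h4, a histone H4 gene, lay at 0.744, Bcl2, which inhibits cell death, at 0.778, and Rbm25, a splicing factor, at 0.868. All 5 were lower in knockdown in both conditions and farther apart in TAP, and with 4 values a profile this close is a description only.

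**Figure D4:**
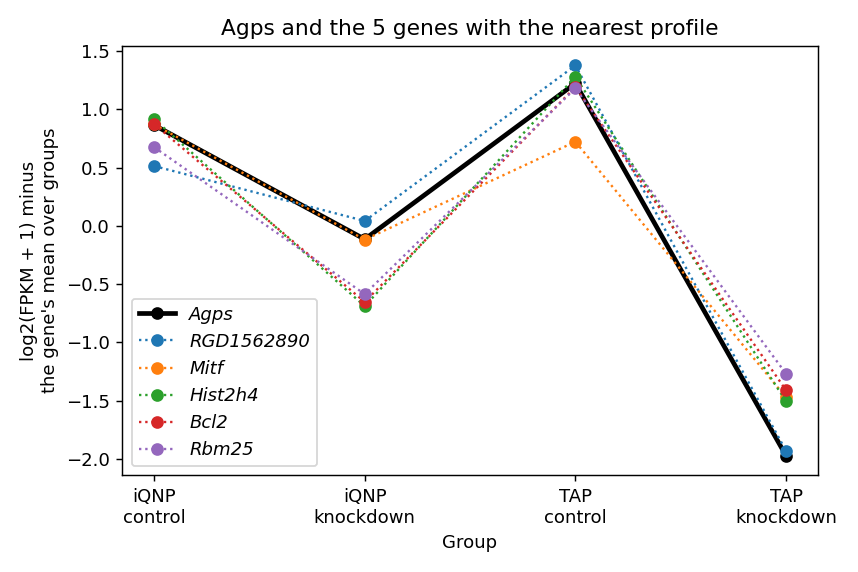
Log2(FPKM + 1) minus the gene's mean over the 4 groups for Agps (black) and the 5 genes closest to it, each point a pooled group value, with lines that only guide the eye. All 6 genes are lowest in TAP knockdown, where Agps was at 57.98 FPKM and RGD1562890 at 9.34.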

How the data were processed

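The authors sequenced 12 libraries on an Illumina instrument after removing ribosomal RNA, mapped reads to the rat build rn4 with TopHat2 and compared groups with Cuffdiff, with versions not given in the sources used here. The 2 deposited tables, 1 per condition, hold 1 FPKM per gene and group, made by the authors from all libraries of the group. The tables carry a mark of revision with no detail given. The authors' fold changes, test statistics and p and q values, also in the tables, were not used. Depth per library was not computed, and coordinates are those of the tables.

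Python 3.11.15, numpy 2.4.6, pandas 2.3.3 and matplotlib 3.10.9 were used. Genes passed with status OK and a mean of at least 1 FPKM (9542 in iQNP, 9284 in TAP), and log2 ratios had a pseudocount of 1. Ratio code was tested on simulated data. Groups came from the labels. The named genes were the 9 genes, Rest, up to 5 genes per list with the largest ratios, neighbours of Agps within 500 kb and the 5 genes most like it. Members, lists and this rule were chosen with earlier results of these data known. Alternatives were a pseudocount of 0.1, other scalings, folds of 1.5 and 3, and no filter. Promoters came from RefSeq (GRCr8), and list genes were matched by symbol or older symbol. The values of 1 list gene, which stays in the list counts, are not reported here.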

Additional observations from a re-analysis of the deposited data

How the results depend on the processing

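Agps had a log2 ratio of -1.51 in iQNP and -3.80 in TAP when groups had the same sum of FPKM. Its direction could not change under the settings tried. A pseudocount cannot turn the sign of a ratio, and the largest upward shift by scaling was 0.013, in iQNP. The sign of Agps is therefore no check of the result. Of the 9 genes, those lower in iQNP numbered 1 with a pseudocount of 0.1, 3 with the same sum, 2 with the same sum without ribosomal protein genes and 2 at a fold of 1.5, against 0, and those higher numbered 2, 0, 0 and 3, with 2 at a median ratio of 0 and 0 at a fold of 3, against 1. In TAP 1 was lower at a fold of 3, and 0, 1, 4 and 0 were higher with the same sum, with the same sum without ribosomal protein genes, at a fold of 1.5 and at a fold of 3. The scalings move the shares of all genes as well. With the same sum 24.2% of all genes were lower in iQNP and 29.7% in TAP, against 3.09% and 6.74%. With the median ratio set to 0, 14.7% were higher in iQNP, against 14.3%. All-gene shares at the other pseudocount and folds were not computed, so the counts are not a result about the members. The pathway median became -0.38 in iQNP and -0.31 in TAP with the same sum, where 16 genes were lower in each and 6 higher in TAP, and 2 and 3 genes were lower in iQNP with a pseudocount of 0.1 and without ribosomal protein genes. The scalings add 1 constant to every ratio of a condition, whereas the pseudocount moves low genes more than high ones. The other 16 member ratios moved with the same sum alone. No paired analysis was possible because each group has a single value, and for the same reason leaving out single libraries was planned but not run. From pooled FPKM, library spread and depth cannot be read, and differences near 2-fold are the least secure.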
